A study of Mus musculus with 6 samples.

Results

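Glutathione synthesis and use is represented here by 9 mouse genes, measured as RNA-seq gene counts in bone marrow-derived macrophages. The 9 were chosen by name (Gclc, Gclm, Gss, Gsr, Gpx1, Gpx4, Mgst1, Gstm1 and Gsto1) with an earlier analysis of these same counts in view. They are 9 of 55335 genes in the count table and 9 of 13901 that passed the filter on low counts, so every gene of the list was tested. Because the counts of these 6 libraries were known when the list was drawn up, the differences between the groups are given as a description of the 9 genes, and their place in the fit over all genes is no independent support.

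All 6 libraries are from primary mouse macrophages (BMDMs) grown from bone marrow with 20 ng/mL of macrophage colony-stimulating factor. On day 5 all 6 cultures were given PAC-CM, a medium in which injured acinar cells of the pancreas, the source of its digestive enzymes, had been kept. In 3 libraries (PAC-CM) nothing else was added, and in 3 (PAC-CM-KD) 400 µM kinsenoside, a plant glycoside, was given with it. The comparison therefore asks how kinsenoside shifts the glutathione genes of macrophages that all carry the conditioned-medium stimulus. Macrophages without conditioned medium were not analysed here. The sources used here give neither the strain, age and number of mice, nor how the acinar cells were injured, nor whether replicates are separate cultures. All p-values therefore rest on how far these 6 samples scatter, and that scatter may be technical.

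Glutathione is a tripeptide that keeps cell thiols reduced. Glutamate-cysteine ligase, made of a catalytic subunit (Gclc) and a modifier subunit (Gclm), carries out the rate-limiting step, and glutathione synthetase (Gss) adds glycine. Glutathione peroxidases (Gpx1 for hydrogen peroxide, Gpx4 for lipid peroxides in membranes) oxidize it while reducing peroxides, glutathione reductase (Gsr) returns the oxidized form to the reduced one with NADPH, and transferases (Mgst1, Gstm1, Gsto1) couple it to other molecules. In macrophages this system buffers the oxidants of the inflammatory response, and Gclc, Gclm and Gsr are textbook targets of the transcription factor NRF2, which binds the antioxidant response element.

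Promoter windows from 250 bases before to 50 bases after a RefSeq start (GRCm38.p6) were matched for 7 of the 9 genes, all but Gclc and Gsr, as 12 windows. They were searched on both strands for the core of the antioxidant response element, TGACNNNGC. It was found in 2 of the 12 windows, 1 of Gclm and 1 of Mgst1, and in 12.4% of 32851 windows of all genes. The related AP-1 site TGANTCA, which can overlap that core, was in none of the 12 and in 7.81% of all windows. In both genes the match lay on the strand opposite to transcription, so the window reads its reverse complement, between 134 and 126 bases before the start in Gclm (TGACGGTGC on the other strand) and between 56 and 48 in Mgst1 (TGACCGTGC). The windows of these genes are shown beside that of Gpx1, which had no match and the least different levels after Gpx4. Gss and Gsto1, with larger estimates than Gpx1, had no match either, nor had the other window of Mgst1. Any tie between matches and levels was not tested. Capitals mark the matched bases, and a match describes the letters only. Sequence outside these windows was not searched, so a window without a match does not show that the gene lacks the element.
Gclm, chr3:122245307-122245606, plus strand: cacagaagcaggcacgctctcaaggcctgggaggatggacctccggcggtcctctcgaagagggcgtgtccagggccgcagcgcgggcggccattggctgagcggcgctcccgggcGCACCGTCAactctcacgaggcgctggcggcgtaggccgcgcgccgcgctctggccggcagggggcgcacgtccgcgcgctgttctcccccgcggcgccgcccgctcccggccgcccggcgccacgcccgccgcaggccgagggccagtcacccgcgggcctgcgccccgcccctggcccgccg
Mgst1, chr6:138140277-138140576, plus strand: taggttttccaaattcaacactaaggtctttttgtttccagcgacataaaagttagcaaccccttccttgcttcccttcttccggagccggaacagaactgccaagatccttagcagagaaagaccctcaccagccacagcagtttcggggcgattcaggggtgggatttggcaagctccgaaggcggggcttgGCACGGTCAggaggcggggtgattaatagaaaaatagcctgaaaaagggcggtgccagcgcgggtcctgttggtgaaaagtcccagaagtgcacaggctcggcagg
Gpx1, chr9:108338830-108339129, plus strand: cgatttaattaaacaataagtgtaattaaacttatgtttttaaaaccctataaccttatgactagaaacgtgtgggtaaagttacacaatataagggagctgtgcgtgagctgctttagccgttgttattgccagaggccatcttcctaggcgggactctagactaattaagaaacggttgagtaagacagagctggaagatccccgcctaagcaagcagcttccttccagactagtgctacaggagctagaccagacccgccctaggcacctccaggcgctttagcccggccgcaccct

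Library totals lay between 41125059 and 47461702 counts, and the 9 genes together took between 0.127% and 0.170% of them. Among macrophage markers, all 10 were present, at a summed 20956 to 23060 CPM (counts-per-million values, over the library total) in PAC-CM and 22942 to 25764 CPM in PAC-CM-KD. Of these 10, Mrc1 was the 1 that passed the test, and it rose (edgeR adjusted p = 0.0316). Markers of acinar cells summed to between 5.54 and 8.27 CPM in all 6 libraries, with the acinar transcription factor gene Ptf1a at 0. Summed neutrophil markers lay between 67.0 and 83.8 CPM in PAC-CM and between 113 and 169 CPM in PAC-CM-KD. Nearly all of that gap was Mmp8 (36.4 ± 7.28 and 97.9 ± 24.6 CPM, SD, n = 3, edgeR adjusted p = 0.0716), while Elane and Retnlg were at 0 and S100a8 averaged 34.7 and 36.5 CPM. Of 39 genes marking 7 other cell types, 10 were tested and none passed the test. Among these 7, endothelial markers had the highest sum, 103 to 132 CPM in PAC-CM and 99.8 to 168 CPM in PAC-CM-KD. Most of that sum was Kdr (58.1 ± 9.46 and 67.4 ± 20.5 CPM) and Vwf (46.3 ± 4.85 and 49.2 ± 11.7 CPM). The neutrophil sum, which did not overlap between groups, and the macrophage sum, which did, were higher on average in PAC-CM-KD, as were the glutathione genes, and their part in the results below was not tested. In bulk RNA, a change in the mix of cells and a change in RNA per cell cannot be told apart.

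Per kilobase of annotated exon, the 9 genes spanned a wide range of levels. Gstm1 was the highest, at 178 CPM per kb averaged over the 6 libraries, followed by Gpx1 (137) and Gpx4 (132), whose ranges over libraries overlapped. Mgst1 and Gsr came next at 76.8 and 76.6 CPM per kb and also overlapped, then Gclm at 37.7. Gsto1 (18.0) and Gclc (17.8) could not be separated, and Gss was the lowest at 4.81 CPM per kb. Neighbours in this order other than those 3 pairs did not overlap in any library. Per kilobase, the enzymes that use glutathione were thus, except for Gsto1, at higher transcript levels than the genes of synthesis. That order depends on dividing by the length of all annotated exons. In CPM alone, Gclm averaged 237, below Gstm1 (262) but above Gpx4 (228), Gsr (211), Gpx1 (198) and Mgst1 (155).

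All 9 genes had point estimates above 0 for PAC-CM-KD against PAC-CM, as had 48.9% of all 13901 tested genes, and the 3 genes of synthesis had the 3 largest. The median log2 fold change of the 9 was 0.25, against -0.01 over all genes tested. None passed the threshold of 0.05 in edgeR's quasi-likelihood fit over all genes (p-values adjusted by Benjamini-Hochberg), which 0.511% of all genes passed, 0.209% being higher with kinsenoside. At an unadjusted p under 0.05, 4 of the 9 were higher (Gclm, Gsr, Mgst1 and Gsto1) and none was lower, with 6.74% of all genes higher and 8.19% lower. DESeq2 called 2 of the 9, Gclm and Gsr, and 3.52% of all genes, while limma-voom called none of the 9 and 0.281% of all genes. In those 4 genes every PAC-CM-KD library lay above every PAC-CM library in CPM, as in 6.86% of all genes, and the same 4 separated after TMM scaling, as in 10.4% of all genes. Nothing is read from these shares, since the list was drawn up with the same comparison known.

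**Figure D1:**
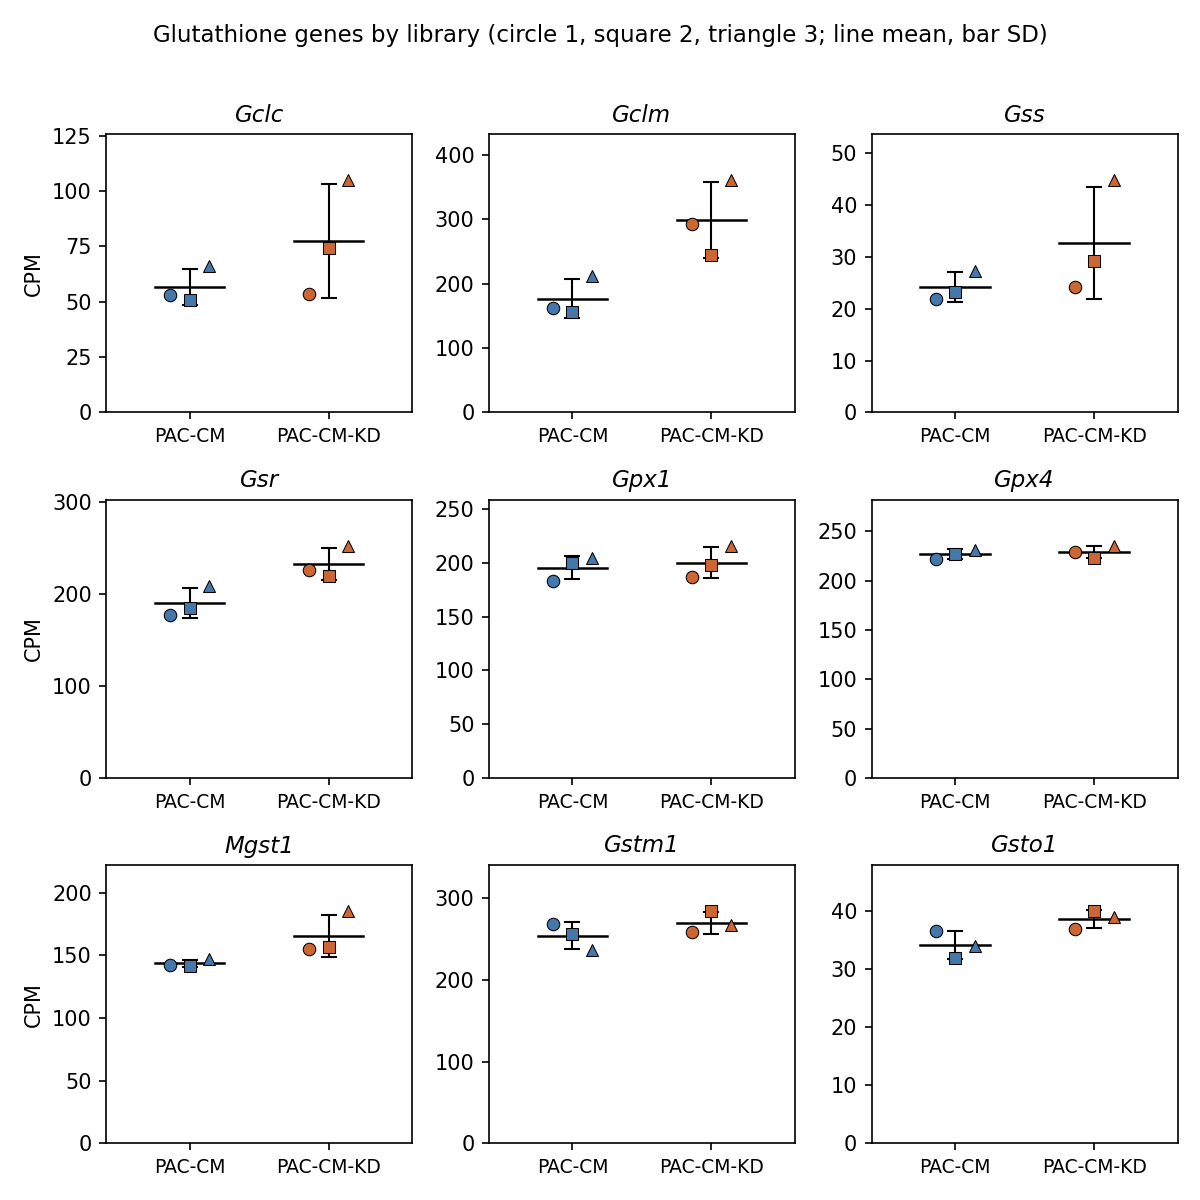
CPM (y axes, from 0) of the 9 glutathione genes in each library, by group (x axes), with the replicate number as the symbol, the mean as a line and the SD as a bar (n = 3 per group). Gclm, Gsr, Mgst1 and Gsto1 have no overlap between groups, while Gpx1 and Gpx4 sit at nearly the same level in both.

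Gclm, the modifier subunit that makes the ligase more efficient, had the largest estimate. Its gene (ENSMUSG00000028124, chromosome 3, 122245557 to 122270732, GRCm38) was at 163, 155 and 211 CPM in the PAC-CM libraries and at 292, 244 and 360 CPM in the PAC-CM-KD libraries, each in the order of replicates 1 to 3, as in all such values below. The lowest PAC-CM-KD library was above the highest PAC-CM library. Group means were 176 ± 30.3 and 299 ± 58.4 CPM (SD, n = 3), and the fitted log2 fold change was 0.81 (SE 0.179, 95% interval 0.37 to 1.24, edgeR adjusted p = 0.129), or 1.75-fold. DESeq2 gave the gene an adjusted p of 0.000144, and over 15 alternative settings the adjusted p went up to 0.355.

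Counts of Gclm are uncertain in part, most plainly in 1 library. A transcript gene on the opposite strand, Gm17494, shares 296 exon bases with Gclm, and the sources used here do not say whether strand was used in counting. Gm17494 had 3 counts in PAC-CM replicate 1 and between 803 and 877 in each of the other 5 libraries. With both genes summed, Gclm and Gm17494 together gave 163, 174 and 231 CPM in PAC-CM and 312, 263 and 380 CPM in PAC-CM-KD, so the groups still did not overlap. Fitted on that sum, a setting added after seeing the data, the log2 fold change was 0.80 (SE 0.185, edgeR adjusted p = 0.137). Of the 100-base stretches in Gclm transcripts, 2.44% also occur in Ppia, a cyclophilin gene with a processed copy inside the Gclm locus. A further pseudogene, Gm10123, holds 2.27% of them. Ppia had 18755 to 19951 counts per library and Gm10123 4846 to 5216, with log2 fold changes of 0.15 and 0.09. Reads of the shared stretches are uncertain in all 6 libraries.

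Gclc, the catalytic subunit (ENSMUSG00000032350, chromosome 9, 77754535 to 77794485), was at 53.1, 50.7 and 66.1 CPM in PAC-CM and at 53.6, 74.5 and 105 CPM in PAC-CM-KD. PAC-CM-KD replicate 1 lay inside the PAC-CM range and replicate 3 far above it. The estimate of 0.50 on the log2 scale (95% interval -0.15 to 1.15, edgeR adjusted p = 0.444) was 0.22 without PAC-CM-KD replicate 3 and 0.71 without PAC-CM-KD replicate 1.

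Gss, which completes the tripeptide (ENSMUSG00000027610, chromosome 2, 155563181 to 155592810), was lowest and highest within PAC-CM-KD in the same libraries as Gclc. It was at 21.9, 23.2 and 27.3 CPM in PAC-CM and at 24.1, 29.2 and 44.7 CPM in PAC-CM-KD. Again PAC-CM-KD replicate 1 fell within the PAC-CM values. Its log2 fold change of 0.48 (95% interval -0.10 to 1.06, edgeR adjusted p = 0.416) was 0.18 without PAC-CM-KD replicate 3. Gss shares 395 exon bases with Acss2, an acetyl-CoA synthetase gene on the other strand with 1072 to 1629 counts per library, against 945 to 1840 for Gss, so part of its counts is uncertain. Acss2 had 1114, 1278 and 1421 counts in PAC-CM and 1072, 1481 and 1629 in PAC-CM-KD (log2 fold change 0.27, edgeR adjusted p = 0.547). Within PAC-CM-KD it was thus lowest and highest in the same libraries as Gss, and any part of shared reads in this was not tested.

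The subunits of the ligase differed in how the PAC-CM-KD libraries spread. Within a library, the ratio of Gclm to Gclc, each in CPM per kb of exon, was 1.83, 1.83 and 1.91 in PAC-CM and 1.96 and 2.06 in PAC-CM-KD replicates 2 and 3. In PAC-CM-KD replicate 1 it was 3.26. That library had high Gclm with Gclc at the PAC-CM level, and it also lay apart from the other 5 on the second principal component of log2 CPM (-39.3, against -6.13 to 19.7). The ratio of Gclc to Gss averaged 3.68 ± 0.214 in PAC-CM and 3.73 ± 0.258 in PAC-CM-KD (SD, n = 3), and PAC-CM-KD replicate 1 was within the PAC-CM range at 3.49.

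**Figure D2:**
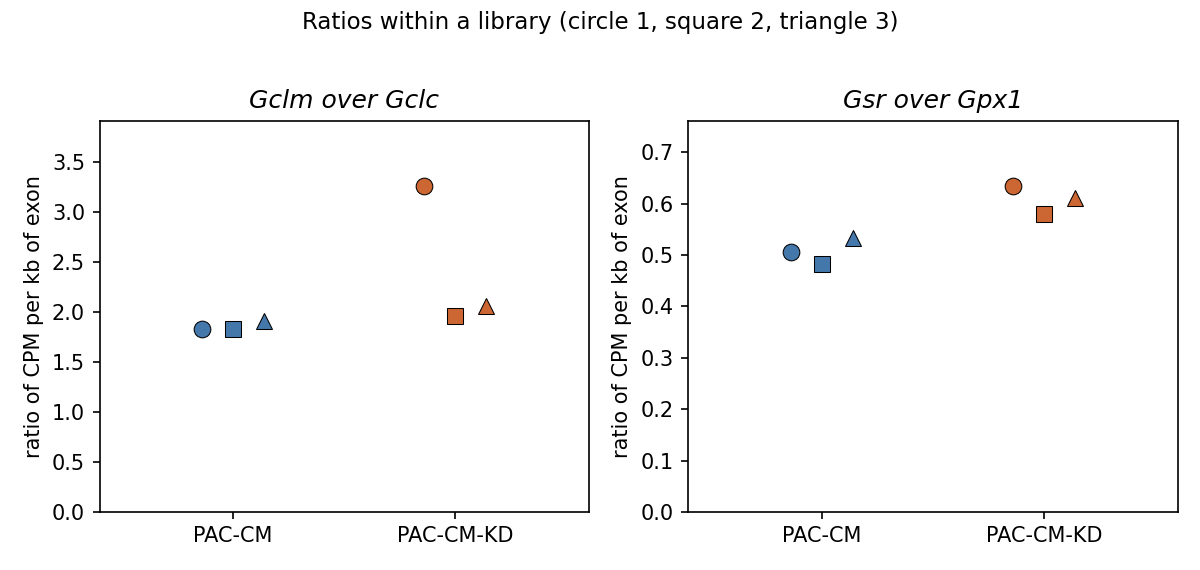
Ratio of CPM per kb of exon (y axes, from 0) of Gclm to Gclc and of Gsr to Gpx1 in each library, by group (x axes), with the replicate number as the symbol. PAC-CM-KD replicate 1 stands alone at 3.26 in the first ratio, while the second is higher in every PAC-CM-KD library.

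Gsr, the reductase (ENSMUSG00000031584, chromosome 8, 33652523 to 33698163), was at 177, 184 and 208 CPM in PAC-CM and at 226, 219 and 252 CPM in PAC-CM-KD. Its groups did not overlap, and PAC-CM-KD replicate 1 was high here, unlike in Gclc and Gss. The log2 fold change was 0.34 (SE 0.0859, 95% interval 0.14 to 0.53, edgeR adjusted p = 0.131), or 1.26-fold, with an adjusted p of 0.0323 in DESeq2. Set against the peroxidase that oxidizes glutathione, Gsr over Gpx1 in CPM per kb was 0.483 to 0.532 in PAC-CM and 0.579 to 0.634 in PAC-CM-KD.

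The peroxidases had the smallest differences of the 9. Gpx1 (ENSMUSG00000063856, chromosome 9, 108338903 to 108340343) was at 183, 199 and 204 CPM in PAC-CM and at 187, 198 and 216 CPM in PAC-CM-KD. The groups overlapped almost fully, and the log2 fold change was 0.08 (95% interval -0.10 to 0.25, edgeR adjusted p = 0.699). Leaving out PAC-CM replicate 1 gave 0.03, PAC-CM-KD replicate 1 gave 0.13 and PAC-CM-KD replicate 3 gave 0.02, and total count scaling gave 0.03. Gpx4 (ENSMUSG00000075706, chromosome 10, 80047166 to 80056439), the enzyme that protects membranes from lipid peroxidation and ferroptosis, held at 222, 227 and 231 CPM in PAC-CM and 229, 223 and 235 CPM in PAC-CM-KD. Its log2 fold change was 0.06 (95% interval -0.07 to 0.19, edgeR adjusted p = 0.695), so the interval reaches no further than 1.14-fold higher. It was 0.04 without PAC-CM-KD replicate 3 and 0.01 with total count scaling. Of the distinct 100-base stretches in Gpx4 transcripts, 25.2% also occur in the pseudogene Gpx4-ps2 (1357 to 1701 counts), so reads can be split between them.

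Among the transferases, Mgst1, a membrane enzyme of the endoplasmic reticulum and mitochondria (ENSMUSG00000008540, chromosome 6, 138140316 to 138156755), was at 142, 142 and 147 CPM in PAC-CM and at 155, 157 and 185 CPM in PAC-CM-KD. The PAC-CM libraries were tight and all below the PAC-CM-KD libraries. The log2 fold change was 0.25 (95% interval 0.06 to 0.44, edgeR adjusted p = 0.215), and 0.16 without PAC-CM-KD replicate 3.

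Gsto1, an omega-class transferase with thiol-reducing activity (ENSMUSG00000025068, chromosome 19, 47854970 to 47864790), was at 36.6, 31.8 and 33.9 CPM in PAC-CM and at 36.8, 39.9 and 38.9 CPM in PAC-CM-KD. The groups were separate by a narrow margin, since PAC-CM replicate 1 and PAC-CM-KD replicate 1 nearly met. Its log2 fold change was 0.22 (95% interval 0.05 to 0.39, edgeR adjusted p = 0.225).

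Gstm1, a mu-class transferase and the highest of the 9 per kilobase of exon (ENSMUSG00000058135, chromosome 3, 108012255 to 108017973), was at 269, 256 and 237 CPM in PAC-CM and at 258, 283 and 267 CPM in PAC-CM-KD. These values overlapped, with a log2 fold change of 0.13 (95% interval -0.03 to 0.29, edgeR adjusted p = 0.424). The estimate was 0.09 without PAC-CM replicate 3 and also 0.09 with total count scaling.

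**Figure D3:**
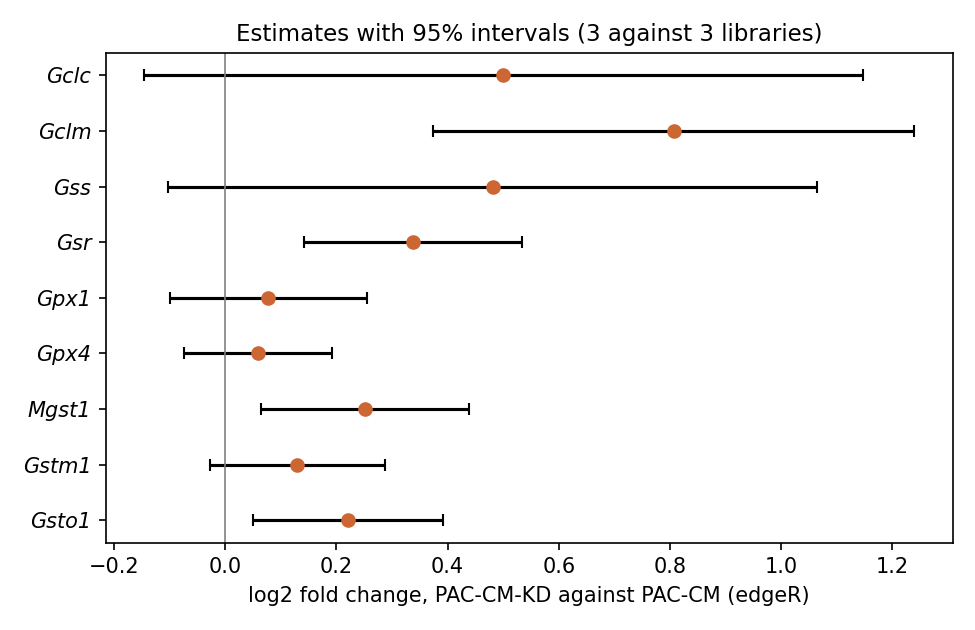
Log2 fold change of PAC-CM-KD against PAC-CM (x axis) for each of the 9 genes (y axis), with 95% intervals from the edgeR fit over 6 libraries. Intervals of Gclm, Gsr, Mgst1 and Gsto1 lie above 0 before adjustment, those of Gclc and Gss are the widest, and Gpx4 has the narrowest.

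Summed by role, the synthesis genes were at 257 ± 41.3 CPM in PAC-CM and 409 ± 87.9 CPM in PAC-CM-KD (SD, n = 3), 1.59 times as much, with most of the gain in Gclm. The peroxidases summed to 423 ± 15.7 and 429 ± 18.9 CPM, a ratio of 1.02, and the transferases to 432 ± 15.2 and 473 ± 21.3 CPM, a ratio of 1.10. Summed transcripts of synthesis, and those of Gsr, were therefore higher relative to the peroxidase sum in the PAC-CM-KD libraries, as a description of these samples. For synthesis this rests largely on Gclm. In PAC-CM-KD replicate 1, Gclc (53.6 CPM) and Gss (24.1 CPM) lay within their PAC-CM ranges.

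Most of the 9 genes also shared a pattern across the replicates within each group. In 7 of the 9, all but Gstm1 and Gsto1, replicate 3 had the highest CPM of its group in both groups, as in 16.3% of all tested genes. Relative to each gene's mean over the 6 libraries, the 9 averaged -0.20, -0.20 and -0.06 on the log2 CPM scale over the PAC-CM libraries and 0.02, 0.09 and 0.35 over the PAC-CM-KD libraries. This average profile also includes the difference between the groups. Single genes can differ from this average in either direction, as Gclc and Gclm did in PAC-CM-KD replicate 1 (-0.25 and 0.39). The labels do not say what a replicate number stands for.

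**Figure D4:**
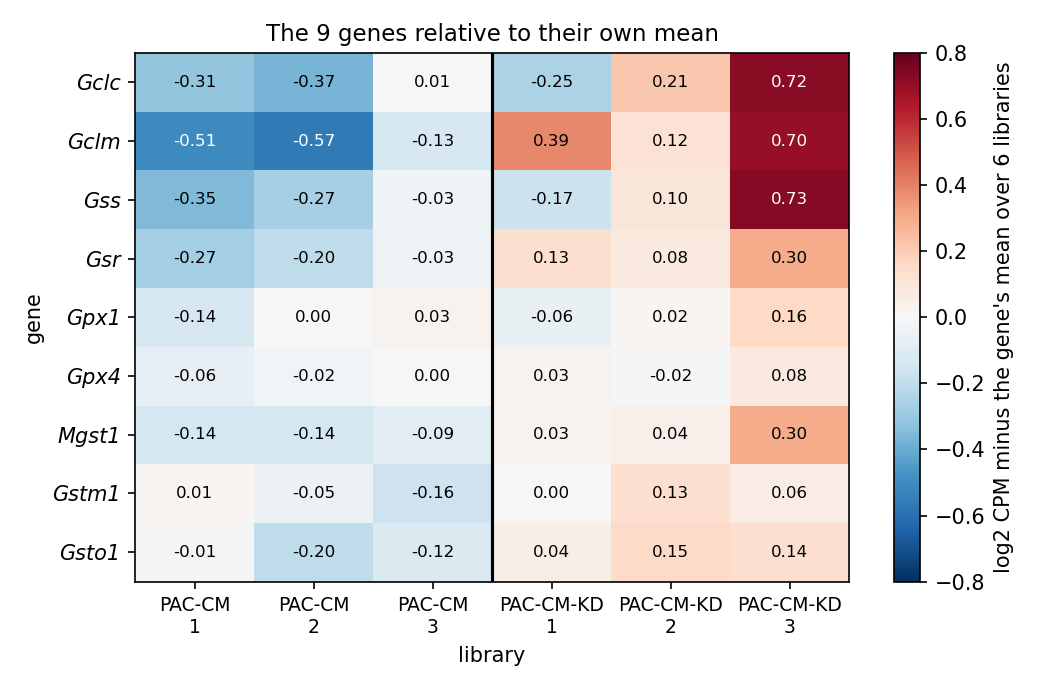
Log2 CPM (TMM-scaled) of each of the 9 genes (rows) in each library (columns) minus the gene's mean over the 6 libraries, in colour and digits. Gclc and Gss both have PAC-CM-KD replicate 3 highest, at 0.72 and 0.73, and replicate 1 below 0, whereas Gclm is above 0 in all 3 PAC-CM-KD libraries.

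The genes whose profile over the 6 libraries was most like the mean profile of the 9 were looked for among 9146 others with at least 5 CPM. The 5 with the highest Pearson correlation were Pik3c2a, a class II phosphoinositide kinase (0.997), Derl1 of endoplasmic reticulum protein disposal (0.995), the transcription coactivator gene Sub1 (0.995), the splicing factor gene Gpkow (0.995) and the kinase gene Stk17b (0.994). With 6 libraries and so many genes these values are a description only. Their log2 fold changes were 0.32, 0.11, 0.27, 0.23 and 0.34, and none passed the test.

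Estimates for the wider glutathione system lay on both sides of 0. Of 79 other genes in 8 lists by role, 56 were tested, 27 had estimates above 0, and the median log2 fold change was -0.01. None passed in edgeR or limma-voom. At an unadjusted p under 0.05, 7 were higher and 4 were lower, beside 6.74% higher and 8.19% lower of all genes. DESeq2 called 3 of the 56, beside 3.52% of all genes, with Hpgds higher and H6pd and Slc1a5 lower. The difference between these genes and the 9 was not tested.

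Cysteine supply was measured through 4 tested genes. Slc7a11, the cystine importer that feeds glutathione synthesis, was at 519, 477 and 596 CPM in PAC-CM and at 528, 656 and 694 CPM in PAC-CM-KD, and its groups overlapped through PAC-CM-KD replicate 1, as those of Gclc and Gss did. The log2 fold change of Slc7a11 was 0.28 (SE 0.119, edgeR adjusted p = 0.324). Its partner chain Slc3a2 was at 644 ± 18.9 and 675 ± 68.2 CPM (adjusted p = 0.563 in edgeR's fit over all genes). Slc1a5, a glutamine transporter, was lower in every PAC-CM-KD library, from 9.04 ± 1.12 to 5.63 ± 0.636 CPM (edgeR adjusted p = 0.0926), and is named here after its value was seen. Of all 13901 tested genes, 2177 were likewise lower without overlap.

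Other transferases mostly lay below 0. Of 14 tested cytosolic ones 5 had estimates above 0, with a median of -0.08, and of 4 membrane-type relatives none had, with a median of -0.21. Hpgds, the glutathione-dependent prostaglandin D synthase, was the most abundant cytosolic one, at 41.9 ± 2.31 and 50.8 ± 4.29 CPM without overlap (log2 fold change 0.32, edgeR adjusted p = 0.128). Gstp1 had 19.3 ± 1.53 and 16.2 ± 4.27 CPM. Ptges, the inducible prostaglandin E synthase and a membrane relative of Mgst1, was at 1000 ± 85.7 and 829 ± 119 CPM (log2 fold change -0.23, edgeR adjusted p = 0.375), and Mgst3 was at 6.04 ± 0.453 and 5.70 ± 0.722 CPM.

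Of the remaining peroxidases 2 were tested. Gpx3, the secreted form, was at 94.9 ± 4.70 and 98.7 ± 20.6 CPM, and Gpx7 was near 1.08 ± 0.225 and 1.06 ± 0.332 CPM. The breakdown list had a median of 0.06 over 8 genes, with the dipeptidase gene Cndp2 at 938 ± 134 and 1072 ± 115 CPM and the aminopeptidase gene Anpep at 2051 ± 248 and 1674 ± 223 CPM. Neither Cndp2 (edgeR adjusted p = 0.391) nor Anpep (0.371) passed.

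NADPH, which Gsr consumes, is made by enzymes of the pentose phosphate pathway among others. The list for NADPH supply held 9 tested genes, not all of which make NADPH themselves. Of these 9, 4 had estimates above 0, and the median log2 fold change was -0.002. Pgd was at 680 ± 44.1 and 773 ± 78.6 CPM (log2 fold change 0.23, edgeR adjusted p = 0.285). Taldo1, of the same pathway but not itself a source of NADPH, was at 455 ± 23.0 and 514 ± 30.4 CPM without overlap (log2 fold change 0.22, edgeR adjusted p = 0.213). H6pd, the enzyme of the endoplasmic reticulum lumen, was lower in every PAC-CM-KD library, as were 2177 of 13901 tested genes. It was at 156 ± 7.64 and 119 ± 2.2 CPM (log2 fold change -0.34, edgeR adjusted p = 0.0711), and like Slc1a5 is named after its value was seen.

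In the list of glutaredoxins and glyoxalases 5 of 8 estimates were above 0. Glrx, which reduces protein-glutathione mixed disulfides, was at 570, 1463 and 722 CPM in PAC-CM and at 1495, 1224 and 717 CPM in PAC-CM-KD. Its libraries fell into high and low values within both groups, so the estimate of 0.36 has an SE of 0.481. Esd was at 1211 ± 88.6 and 1220 ± 32.3 CPM. Among 7 genes of conjugate export and mitochondrial import, 3 were above 0, with Abcc1 at 245 ± 24.0 and 261 ± 34.3 CPM and Abcc5 at 324 ± 26.0 and 310 ± 39.5 CPM.

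**Figure D5:**
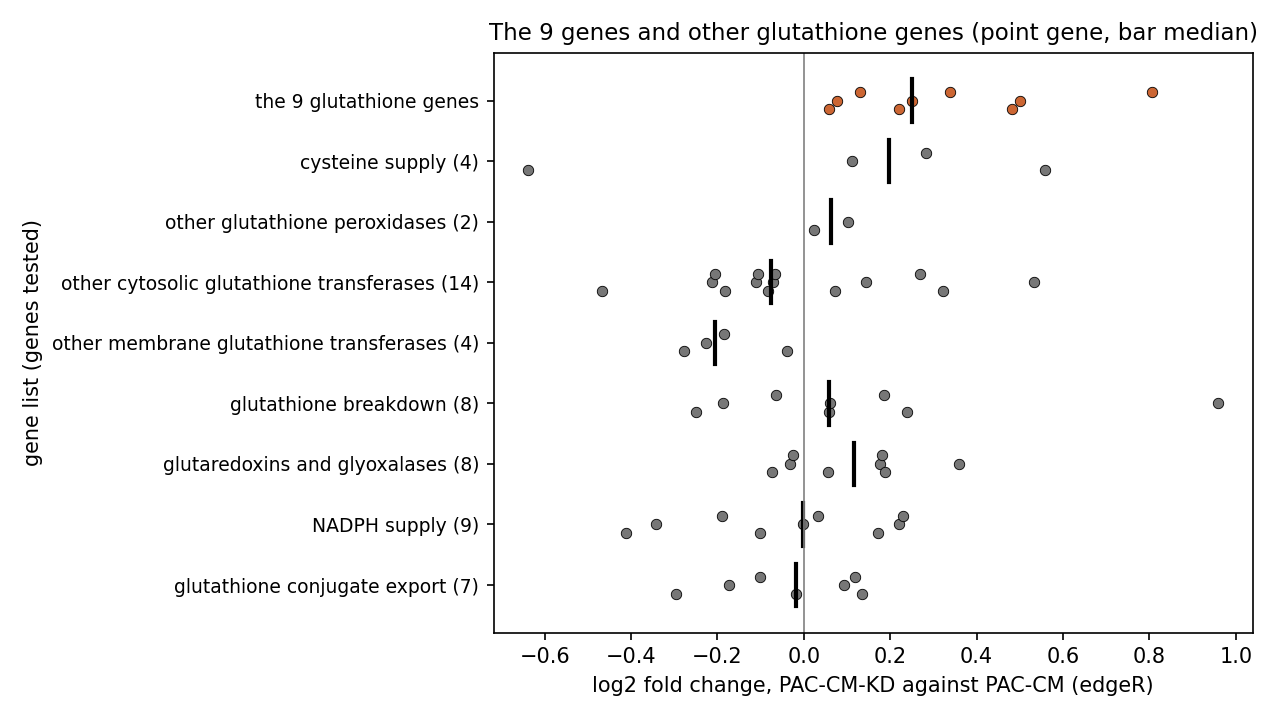
Log2 fold change of PAC-CM-KD against PAC-CM (x axis) for the 9 genes and for 56 other tested glutathione genes in 8 lists by role (y axis, with the number tested). Points are genes and bars are medians: the 9 genes are all above 0, and the other lists spread on both sides apart from the 2 other peroxidases and the 4 membrane transferases.

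A search of the deposited gene descriptions for the word glutathione, made after seeing the data, found 44 genes, of which 29 were tested and 22 are not among the 9. Of those 22, 10 had estimates above 0. Beside 0.511% of all tested genes, 1 of the 22 passed the test. That gene, Haghl, named for its likeness to the glyoxalase hydroxyacylglutathione hydrolase (ENSMUSG00000061046, chromosome 17, 25779843 to 25785673), fell in PAC-CM-KD. It was at 7.64, 7.27 and 9.93 CPM in PAC-CM and at 3.66, 4.05 and 4.57 CPM in PAC-CM-KD (log2 fold change -0.97, SE 0.159, edgeR adjusted p = 0.0473). Its groups did not overlap, as in the 2177 of 13901 tested genes that were lower without overlap. Haghl passed narrowly, at rank 67 by edgeR p where 71 genes were called, and was not followed over the alternative settings. Hagh itself was at 7.77 ± 0.718 and 8.53 ± 0.819 CPM.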

How the data were processed

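Gene counts of 6 libraries, 3 per group, were used as deposited: the authors deposited whole-number counts per Ensembl gene for 55335 genes. The build was GRCm38, and DESeq2 1.16.1, StringTie 1.3.1c and the aligner STAR are listed, per the submitters' processing notes. Which tool counted and whether strand was used are not given in the sources used here. A count of 3 was more frequent (6202 values) than 2 (5128), so counts may be rounded estimates.

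The 9 genes were matched by symbol. The members and lists were chosen with earlier results of these data known. edgeR 4.0.16 (R 4.3.3) was fitted over all genes: filterByExpr (13901 kept), TMM, robust quasi-likelihood on the group alone, two-sided, Benjamini-Hochberg over all tested genes, threshold 0.05. The standard error is the absolute log2 fold change over the square root of F. CPM is a count over the library total; log2 CPM had a prior count of 2. Exon length is the union of exons in GENCODE for GRCm38; promoters are RefSeq's. Named pathway genes are those with adjusted p under 0.05 and the 2 most abundant of each list; Slc1a5, H6pd and Hagh were added after their values were seen. Alternatives were DESeq2 1.42.0, limma-voom (limma 3.58.1), other scalings and filters, a replicate block, non-robust estimates, a threshold of 0.01 and leaving out each library. The edgeR script was tested on simulated data.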

Additional observations from a re-analysis of the deposited data

How the results depend on the processing

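All 9 genes kept estimates above 0 in each of 15 alternative settings, which include leaving out each library. None was called except Gclm and Gsr with DESeq2, giving 2 calls, and Gclm alone with the replicate block, giving 1. Same-numbered libraries had deviation correlations of 0.01, -0.10 and 0.13, and differently numbered ones lay between -0.17 and 0.16. With so few libraries these values cannot decide whether replicate numbers pair them. The block lowered the SE of each of the 9 genes except Gsto1, that of Gclm from 0.179 to 0.0644. It took the count of genes called over all genes from 71 to 42. That count was 490 with DESeq2, 39 with limma-voom, 36 with non-robust estimates, 11 at a threshold of 0.01, and between 13 (without PAC-CM replicate 1) and 98 (without PAC-CM-KD replicate 1) with 1 library left out. Of the 56 other glutathione genes, 3 were called with DESeq2 and 1, H6pd, with total count scaling. That scaling moved the median of all genes to -0.05 and split the calls into 25 higher and 63 lower, against 29 and 42. With 1 library left out, Gclm lay between 0.65 and 0.96 and Gsr between 0.27 and 0.41. With 3 libraries per group the precision is limited, and how much of that is due to their spread or to depth was not tested. At these depths 3 counts were at most 0.0729 CPM.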
